A study of Mus musculus with 16 samples.

Results

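Cells make sterols and fatty acids from the same starting material, acetyl-CoA, and 29 genes of these pathways were followed through 16 RNA-seq libraries of mouse intestinal organoids. The genes were taken from a list of symbols, and all 29 were found among the 46078 genes of the count files. Of these, 7 encode mevalonate enzymes (Acat2, Hmgcs1, Mvk, Pmvk, Mvd, Idi1 and Fdps) and 11 encode enzymes that make squalene and turn it into cholesterol (Fdft1, Sqle, Lss, Cyp51, Tm7sf2, Msmo1, Nsdhl, Hsd17b7, Ebp, Sc5d and Dhcr7). Together these 18 are called the sterol branch. The fatty acid branch holds 7 enzymes (Acly, Acss2, Acaca, Fasn, Elovl6, Scd1 and Scd2), and 4 further genes encode the regulators Srebf1, Srebf2 and Insig1 and the sterol carrier Stard4.

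Both branches are controlled by the SREBP transcription factors. These are made as membrane proteins of the endoplasmic reticulum, and when sterols are scarce they are carried to the Golgi and cut, so that the free part enters the nucleus and binds sterol regulatory elements, usually beside NF-Y and Sp1 sites. SREBP-2, from Srebf2, acts mainly on the sterol genes and SREBP-1c, from Srebf1, mainly on the fatty acid genes, while Insig1 encodes a protein that holds the precursors back and is itself a target. The intestinal epithelium makes cholesterol as well as absorbing it from the diet.

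Organoids are crypt cells grown as closed epithelium in a gel. All were on a C57BL6 background and, per the labels' protocols, came from Lgr5-EGFP-IRES-CreERT2 mice, with or without Apc fl/fl, or from Villin-CreERT2 Apc fl/fl mice, and the labels do not say which library came from which line. Both Cre drivers act in epithelium, in Lgr5+ stem cells or the whole epithelium, and Apc was recombined in culture with 4OH-tamoxifen. Wild type organoids carried the red mCherry construct LeGO-C2 and Apc-/- organoids the green Venus construct LeGO-V2. All media held EGF, R-spondin and Noggin, which the wild type cultures need to grow. Untreated organoids were sequenced on day 2, with n = 2 for Apc mutant and n = 2 for wild type. The other 12 libraries were grown in conditioned medium, taken from 3-day-old wild type or Apc-/- cultures, and their titles carry APCCM (labelled Apc mutant) or WTCM (labelled WT), with n = 3 for each title on day 2 and on day 4. For all 12 the treatment given is medium from Apc mutant cultures.

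The Wnt target gene Notum, which Apc loss turns on, stood at 285 ± 38.6 CPM (CPM is the count scaled to a common library size; SD, n = 2) in the untreated Apc mutant and at 0.273 ± 0.0769 (SD, n = 2) in the untreated wild type. In the APCCM libraries it stood at 0.676 ± 0.0728 on day 2 and 0.459 ± 0.163 on day 4 (SD, n = 3 each), which goes against their genotype label, so these libraries are named by their titles throughout. Each conditioned medium library held 17986815 to 29152692 gene counts, and each untreated library 8325979 to 13027701. The non-coding RNA gene Gm26917 took 7.68 to 11.5% of gene counts with conditioned medium and 0.00387 to 0.00952% without it. Levels with and without conditioned medium are therefore set side by side and not tested directly. The labels do not say whether replicates were separate cultures, so p-values measure only the spread between these libraries. In replicate 1 of WTCM on day 4, 33.3% of reads had several alignments, the highest share among the 12, and results that turn on it are given without it.

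Promoter sequences of 4 members that differed in their response are shown, with 2 short motifs tied to SREBP control marked. They are from RefSeq (build GRCm38.p6) and run 5′ to 3′ on the gene's own strand up to or short of the start of transcription. They cover Hmgcs1 at chr13:119690101-119690350 (plus strand), Insig1 at chr5:28071162-28071362 (plus strand), Elovl6 at chr3:129532136-129532354 (plus strand) and Fasn at chr11:120824548-120824797 (minus strand). Capitals mark the sterol regulatory element TCACNCCAC and the NF-Y box CCAAT, read as ATTGG on the other strand.
Hmgcs1: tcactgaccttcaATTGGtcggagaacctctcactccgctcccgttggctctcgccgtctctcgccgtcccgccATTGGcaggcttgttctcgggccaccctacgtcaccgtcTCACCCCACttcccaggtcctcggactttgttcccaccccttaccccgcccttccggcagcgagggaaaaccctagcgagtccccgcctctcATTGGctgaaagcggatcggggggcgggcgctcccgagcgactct
Insig1: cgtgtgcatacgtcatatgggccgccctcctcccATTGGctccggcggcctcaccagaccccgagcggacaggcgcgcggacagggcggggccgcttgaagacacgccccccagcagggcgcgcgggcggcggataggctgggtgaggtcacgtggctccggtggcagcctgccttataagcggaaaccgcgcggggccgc
Elovl6: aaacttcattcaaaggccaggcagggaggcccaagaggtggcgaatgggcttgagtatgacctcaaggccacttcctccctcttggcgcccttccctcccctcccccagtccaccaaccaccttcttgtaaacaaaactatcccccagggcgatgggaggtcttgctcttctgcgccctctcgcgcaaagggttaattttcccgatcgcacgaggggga
Fasn: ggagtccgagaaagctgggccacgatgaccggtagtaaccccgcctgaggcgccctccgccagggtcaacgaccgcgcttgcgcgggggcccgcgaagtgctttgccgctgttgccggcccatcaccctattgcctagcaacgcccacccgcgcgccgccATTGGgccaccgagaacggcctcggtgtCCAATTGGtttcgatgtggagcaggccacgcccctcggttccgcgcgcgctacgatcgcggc
The Hmgcs1 promoter holds the sterol regulatory element TCACCCCAC 137 bases before the start, and NF-Y boxes 237, 176 and 45 bases before it. The Insig1 stretch holds 1 NF-Y box, 216 bases before the start. Fasn holds 3 NF-Y boxes, 90, 62 and 59 bases before the start, the last 2 overlapping in one run. The Elovl6 stretch holds neither motif. Not in capitals, the Sp1-type GC box GGGCGG, on either strand, lies 92 and 24 bases before the Hmgcs1 start. It lies 229, 167 and 126 bases before the Insig1 start, with the E-box CACGTG 101 bases before it. Only exact letters were searched, so a missing match does not show that a site is absent. Whether the motifs go with the response was not tested.

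A promoter window of 300 bases, from 250 before to 50 after the start, was found for 23 of the 29 members. CCAAT, on either strand, stood in a promoter of 20 of these 23 genes (87.0%), against 42.9% of the 10840 genes tested that have a promoter window and 41.1% of all 27025 genes with one. It was in 14 of 15 sterol branch genes and in 3 of 5 fatty acid genes. No window was found for Fdps, Fdft1, Sqle, Scd1, Scd2 or Stard4. The only window of Acaca, which lacked CCAAT, was chr11:84195188-84195487, inside the annotated gene, which starts at 84129672. The share of the fatty acid branch is therefore incomplete. The Sp1-type GC box GGGCGG, on either strand, stood in 19 of 23 (82.6%), against 67.0% of genes tested and 38.2% of all. The E-box CACGTG stood in 4 of 23 (17.4%; Dhcr7, Hsd17b7, Insig1 and Sc5d), against 11.5% and 8.09%. TCACNCCAC was found in Hmgcs1 alone of the 23 (4.35%), against 1.49% and 1.44%. A match is a description of the letters in these windows, and forms of these sites with other letters were not searched.

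All 29 members passed the filter on low counts. Per kilobase of exon, Scd2, a stearoyl-CoA desaturase that makes monounsaturated fatty acids, had the highest mean level of the 29 in each of the 6 groups, from 255 CPM per kb in APCCM on day 2 to 517 in untreated wild type. Hmgcs1, the HMG-CoA synthase, followed in untreated wild type at 189 CPM per kb, then Cyp51, the lanosterol demethylase, at 149 and Insig1 at 137. The lowest in that group were Idi1 at 16.2, Fdps at 9.67 and Acaca at 3.88 CPM per kb. Exon lengths include every annotated transcript, so genes with many transcripts come out lower.

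Some of the 29 share sequence with other genes, and their levels are less certain. Of the 50-base windows of their transcripts, 39.1% of Acat2 are also in Acat3, 29.2% of Acaca in Gm5182, 23.4% of Fdps in Gm43738 and 17.7% of Idi1 in Gm13502. Fdft1 overlaps Ctsb on the opposite strand over 774 bases (18.3% of its exons), and Tm7sf2 overlaps Vps51 on the same strand over 532 bases (12.1%). Scd1 and Scd2 are paralogs, but only 2.66% of Scd2 windows are in Scd1.

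**Figure D1:**
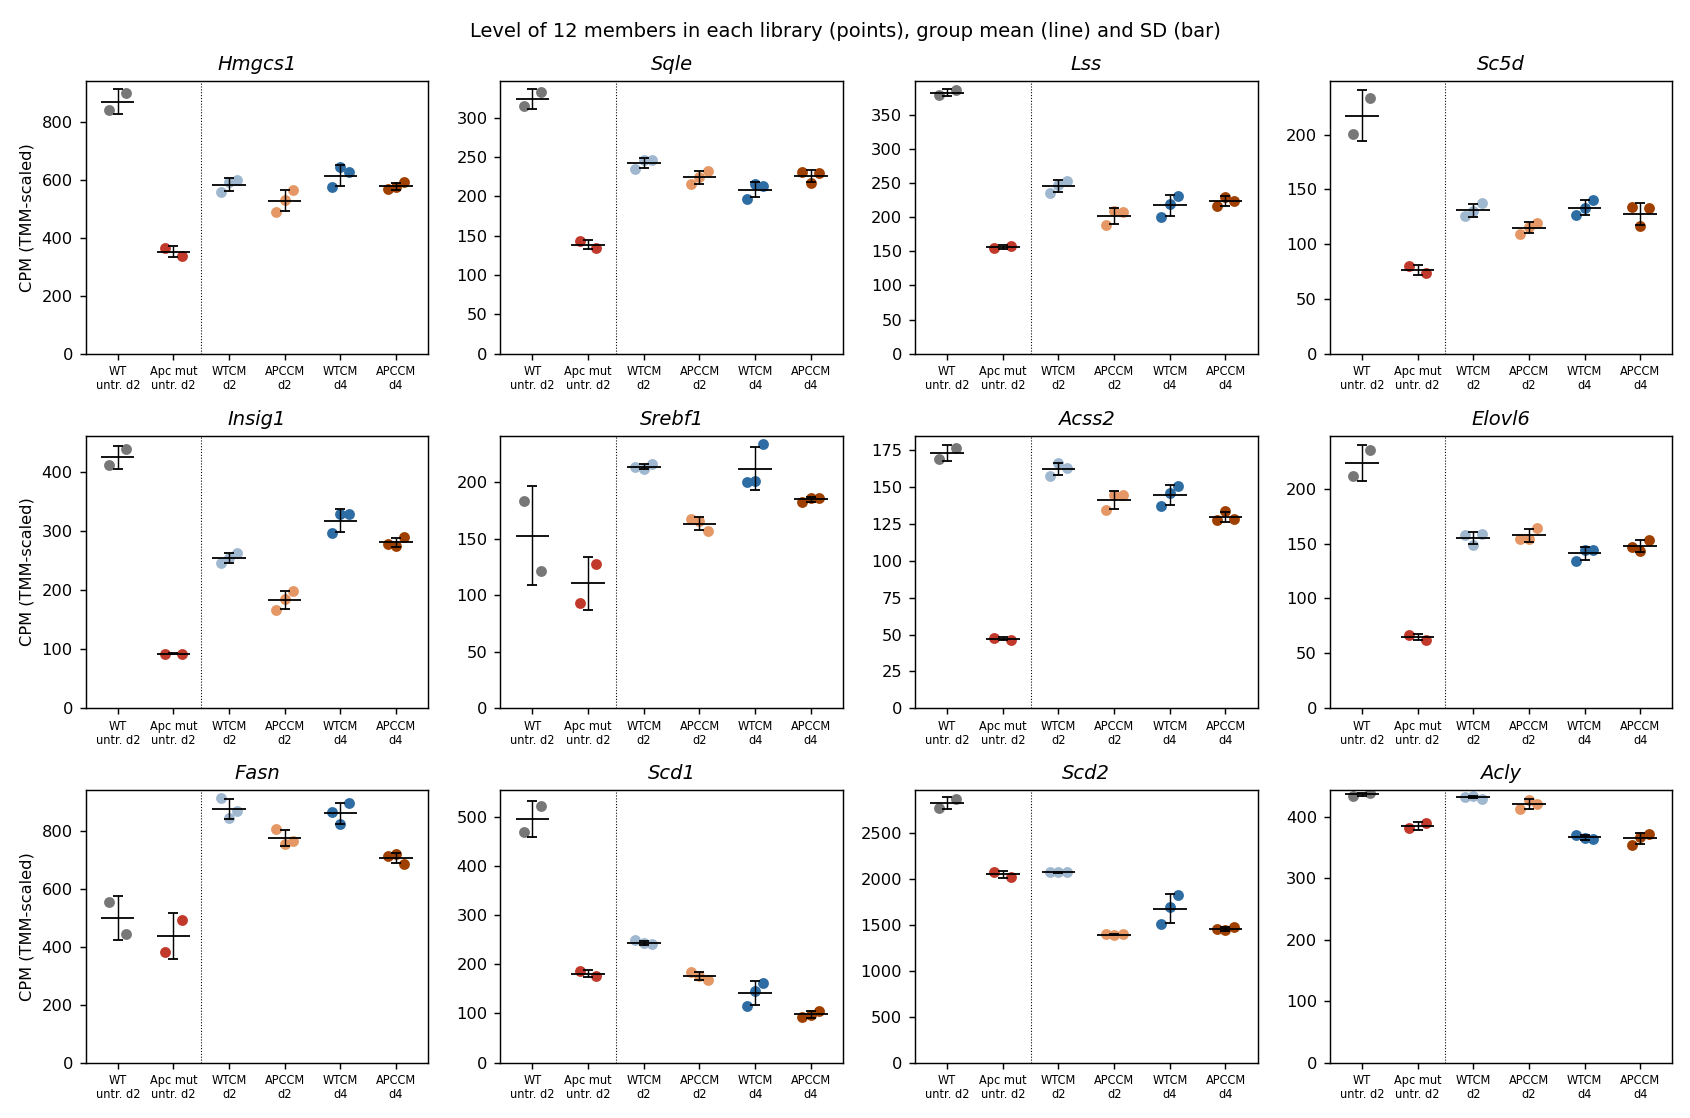
Level of 12 members in each of the 16 libraries. The vertical axis is CPM scaled by TMM factors, starting at 0; points are libraries, lines group means and bars SD (n = 2 untreated, n = 3 in conditioned medium). The lowest group mean is in the untreated Apc mutant except for Scd1 and Acly (APCCM on day 4) and Scd2 (APCCM on day 2). Levels with and without conditioned medium were not tested directly.

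Without conditioned medium, the comparison of Apc mutant with wild type organoids on day 2 asks how the loss of Apc goes with the level of these genes. Of the 29 members, 27 fell in the mutant and 0 rose, by the quasi-likelihood test of edgeR (adjusted p under 0.05, Benjamini-Hochberg over 16510 genes). Over all genes tested, 30.1% fell, 32.4% rose and 62.5% changed in either direction, so a called gene is common in this comparison. Of the members, 16 fell at least 2-fold, against 12.9% of all genes tested. All 18 sterol branch genes fell, with a median log2 fold change of -1.23 (range -1.61 to -0.41), and the median over all genes tested was 0.

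The mevalonate enzymes fell 7 of 7, with a median log2 fold change of -1.26. Hmgcs1, which follows Acat2 in the route, stood at 839 and 899 CPM in the wild type and at 365 and 338 CPM in the mutant. Its log2 fold change was -1.31 (SE 0.07, adjusted p = 2.3e-14). Idi1, the isopentenyl diphosphate isomerase, stood at 51.3 and 62.5 CPM in the wild type and at 20.9 and 16.5 in the mutant, a log2 fold change of -1.61 (SE 0.13, adjusted p = 3.8e-11). The groups did not overlap for either gene. Pmvk, the phosphomevalonate kinase, stood at 96.8 and 99.1 CPM against 37.2 and 43.1, a log2 fold change of -1.28 (SE 0.08, adjusted p = 4.8e-13). Acat2, the cytosolic thiolase that joins acetyl-CoA units, changed by -1.25 on the log2 scale, and the smallest change of the 7 was that of Fdps, the farnesyl diphosphate synthase, at -0.88.

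The enzymes from squalene to sterols fell 11 of 11, with a median log2 fold change of -1.18. Sc5d, the lathosterol oxidase, stood at 201 and 234 CPM in the wild type and at 79.8 and 73.5 in the mutant, a log2 fold change of -1.50 (SE 0.08, adjusted p = 3.7e-14). Ebp, the sterol isomerase, stood at 102 and 111 CPM against 44.0 and 41.7, a log2 fold change of -1.31 (SE 0.07, adjusted p = 8.4e-15). Lss, the lanosterol synthase, stood at 379 and 386 CPM against 155 and 158, a log2 fold change of -1.29 (SE 0.07, adjusted p = 3.0e-14). The mutant libraries lay below both wild type libraries for all 3. Sqle, the squalene epoxidase and a rate-limiting step, changed by -1.22 on the log2 scale. Tm7sf2, a sterol reductase whose reaction a second enzyme also carries out, changed least of the 11, at -0.41, and Cyp51 next, at -0.59.

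In the fatty acid branch, 6 of 7 genes fell, with a median log2 fold change of -0.46, and the spread among them was wide, from -1.88 to -0.18. Acss2, which makes acetyl-CoA from acetate, stood at 169 and 177 CPM in the wild type and at 47.8 and 46.6 in the mutant, a log2 fold change of -1.88 (SE 0.07, adjusted p = 6.5e-18). Elovl6, the elongase of palmitate, stood at 212 and 235 CPM against 66.3 and 62.5, a log2 fold change of -1.79 (SE 0.07, adjusted p = 3.1e-17). Scd1 stood at 470.0 and 522 CPM against 185 and 176, a log2 fold change of -1.46 (SE 0.10, adjusted p = 2.8e-12). These 3 genes lay in or beyond the range of the sterol branch. The core steps of fatty acid synthesis differed less. Acly, which makes cytosolic acetyl-CoA from citrate, stood at 435 and 439 CPM in the wild type and at 381 and 390 in the mutant, a log2 fold change of -0.18 (SE 0.05, adjusted p = 0.0050). Acaca, the acetyl-CoA carboxylase that commits carbon to fatty acids, stood at 61.1 and 71.5 CPM against 54.1 and 52.6, a log2 fold change of -0.31 (SE 0.07, adjusted p = 0.00068). Fasn, the fatty acid synthase, stood at 554 and 445 CPM against 381 and 492, overlapped between the groups and did not pass the test (log2 fold change -0.19, SE 0.09, adjusted p = 0.070). That value rested on single libraries. It was -0.39 without replicate 5 of the mutant (adjusted p = 0.00068) and -0.34 without replicate 5 of the wild type (adjusted p = 0.0026), and it was -0.02 and -0.03 without replicate 4 of either (adjusted p = 0.89 and 0.84). Scd2 changed by -0.46 on the log2 scale (2779 and 2875 CPM against 2079 and 2022). With the plain sum of gene counts as library size, in which the median over all genes moved to 0.17, the calls for Acly (adjusted p = 0.91) and Acaca (adjusted p = 0.092) were lost.

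Among the regulators, Insig1 had the largest change of the 29. It stood at 412 and 439 CPM in the wild type and at 92.5 and 92.1 in the mutant, a log2 fold change of -2.20 (SE 0.08, adjusted p = 3.1e-18), or 4.61-fold lower. Srebf2, the gene of SREBP-2, stood at 307 and 238 CPM against 241 and 296, with overlapping groups and a log2 fold change of -0.02 (SE 0.09, adjusted p = 0.85). Leaving out each untreated library in turn gave -0.20 to 0.17, and none of these 4 values passed the test (adjusted p from 0.059 to 0.32). Srebf1 stood at 183 and 121 CPM against 93.4 and 127, a log2 fold change of -0.47 (SE 0.13, adjusted p = 0.0023). Its groups overlapped, and the call was lost without replicate 4 of either group (adjusted p up to 0.33). Stard4, which carries sterols through the cytosol, changed by -0.89 on the log2 scale. Transcript levels of Srebf1 and Srebf2 do not show how much of the proteins was cut.

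**Figure D2:**
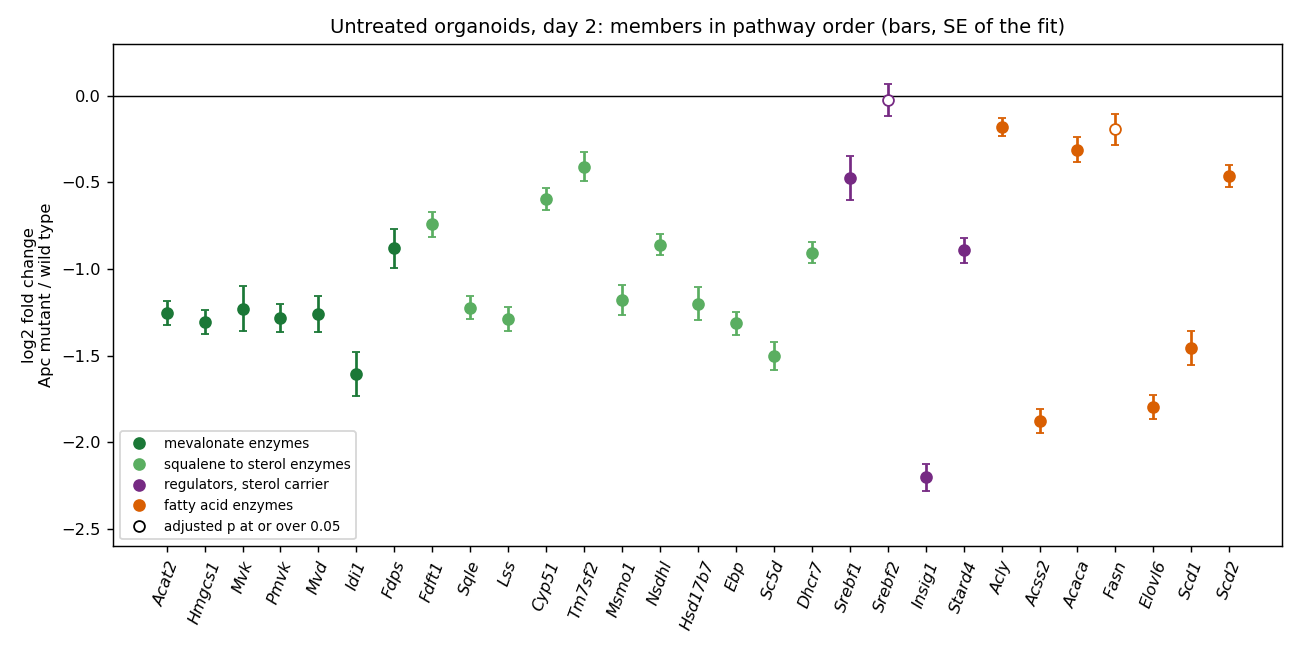
Log2 fold change of the 29 members of untreated Apc mutant over untreated wild type, day 2, in pathway order; bars are SE of the fit, colours mark the sets, and open points did not pass the test. The 18 sterol branch genes lie between -1.61 and -0.41, and the fatty acid genes split between -1.88 to -1.46 (Acss2, Elovl6, Scd1) and -0.46 to -0.18 (the other 4).

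Markers of several cell types moved with these differences. The summed level of 8 enterocyte markers lay at 309 to 315 CPM in the mutant and 8089 to 8186 CPM in the wild type, with 7 of 8 lower, and that of 8 secretory cell markers at 20.7 to 22.5 against 4877 to 5093 CPM, with 8 of 8 lower. The sum of 7 epithelial markers was 2186 to 2337 against 4014 to 4158 CPM, with Krt20 at 0 in the mutant. Of 5 stem cell markers, 4 were higher in the mutant and 1 lower (median log2 fold change 0.95), while their sum was 1833 to 1919 against 2633 to 2834 CPM, with Olfm4, the marker that fell, at -12.86. The sum of 5 proliferation markers was 1288 to 1352 against 1462 to 1580 CPM. A list of 5 fibroblast markers summed to 271 to 287 CPM in the mutant against 4.80 to 5.80 in the wild type, with Col1a2 and Col3a1 at 0 in both and Vim at 270 and 285 CPM in the mutant against 5.64 and 4.69. The part of these markers in the result was not tested, and in bulk RNA fewer cells of a type and less RNA per cell cannot be told apart.

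Other genes of sterol handling moved in both directions. Of 16 tested, 4 rose and 7 fell. Npc1l1, the cholesterol uptake transporter of enterocytes, fell by 7.51 on the log2 scale (134 and 141 CPM in the wild type, 0.693 and 0.795 in the mutant). Soat1, which esterifies cholesterol, rose by 1.12 on the log2 scale, from 150 and 163 CPM to 350 and 329. Tmem97, a sterol-responsive membrane protein gene, fell by 1.32. The genes for SCAP (0.13, adjusted p = 0.27) and the site-2 protease Mbtps2 (0.03, adjusted p = 0.77), both needed to release SREBPs, did not pass the test, and Mbtps1, the site-1 protease gene, rose by 0.33. These 3 were singled out after their values were seen. Of 18 further fatty acid genes tested, 5 rose and 11 fell, among them Mlxipl, the gene of the carbohydrate-responsive factor ChREBP, by 2.59 and Aacs, which feeds ketone bodies into lipid synthesis, by 1.49. Of 8 genes of the oxysterol receptors LXR and their targets, 3 rose and 4 fell. Abcg1, a sterol exporter gene, rose by 3.22, from 0.245 and 0.218 CPM in the wild type to 1.94 and 2.51 in the mutant. Mylip, whose product degrades lipoprotein receptors, rose by 2.04, from 0.409 and 0.655 CPM to 2.15 and 2.14. Both rises were thus at very low levels. Nr1h3, the gene of LXR-alpha, fell by 3.93, from 21.0 and 19.7 CPM to 1.32 and 1.35, and Abcg5 fell by 1.54.

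In conditioned medium on day 2, the APCCM and WTCM libraries differed much less. Of the 29 members, 11 were lower in APCCM and 0 higher, against 8.15% lower and 8.54% higher over all genes tested. The median log2 fold change was -0.15 in the sterol branch, with 6 of 18 lower, and -0.17 in the fatty acid branch, with 3 of 7 lower. The largest differences were in both desaturases, in Insig1 and in Srebf1.

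Scd2 stood at 2072, 2072 and 2076 CPM in WTCM and at 1401, 1388 and 1397 in APCCM, a log2 fold change of -0.57 (SE 0.05, adjusted p = 1.1e-08). Scd1 stood at 248, 243 and 241 CPM in WTCM and at 183, 176 and 168 in APCCM, a log2 fold change of -0.47 (SE 0.08, adjusted p = 0.00014). Insig1 stood at 247, 255 and 264 CPM in WTCM and at 167, 186 and 198 in APCCM, a log2 fold change of -0.48 (SE 0.06, adjusted p = 2.2e-06). None of these groups overlapped. Srebf1 stood at 213, 212 and 216 CPM against 168, 165 and 157, a log2 fold change of -0.39 (SE 0.10, adjusted p = 0.0082), and without replicate 3 of APCCM its call was lost (adjusted p = 0.054). Lss stood at 235, 247 and 253 CPM against 188, 209 and 208, a log2 fold change of -0.28 (SE 0.06, adjusted p = 0.00080). The test was also passed by Mvk, the mevalonate kinase (-0.29), Ebp (-0.24), Acss2 (-0.20), Dhcr7, the last reductase to cholesterol (-0.20), Sc5d (-0.19) and Nsdhl (-0.18). The calls for Mvk and Sc5d were lost under 9 and 11 of 24 alternatives. Fasn stood at 914, 845 and 869 CPM against 809, 755 and 765, without overlap. It did not pass the test (-0.17, adjusted p = 0.11) but did under 4 of 24 alternatives (adjusted p down to 0.0084). Hmgcs1 stood at 558, 593 and 598 CPM against 490, 529 and 564, with overlapping groups (-0.14, adjusted p = 0.082, and 0.048 without replicate 3 of APCCM), and Srebf2 had a log2 fold change of -0.08 (adjusted p = 0.53).

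Here the secretory markers moved the other way. Their sum lay at 5448 to 5891 CPM in APCCM and 3426 to 3540 in WTCM, with 7 of 8 higher, while 5 stem cell markers summed to 2662 to 2848 against 3488 to 3723 CPM, with 4 of 5 lower, and the 8 enterocyte markers to 7095 to 7454 against 7160 to 7706 CPM, with 2 higher and 3 lower. The proliferation markers summed to 1705 to 1726 against 1565 to 1582 CPM, with 1 of 5 higher. Their part in the result was not tested. Among the further fatty acid genes, 2 of 18 were higher and 6 lower, with Acacb, the mitochondrial acetyl-CoA carboxylase, higher by 1.12 and Fads2, a desaturase of polyunsaturated fatty acids, lower by 0.44. Of the further sterol genes, 2 of 16 were higher and 5 lower, and of the LXR genes 0 of 8 were higher and 2 lower (Nr1h3 by 0.73 and Lpcat3 by 0.33).

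On day 4, 4 of the 7 members that differed between titles were fatty acid genes. Of the 29 members, 6 were lower in APCCM and 1 higher, against 7.80% and 7.83% of all genes tested. The sterol branch had 1 gene higher and 1 lower of 18 and a median log2 fold change of 0.04, while the fatty acid branch had 4 of 7 lower and a median of -0.16.

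Scd1 stood at 115, 146 and 162 CPM in WTCM and at 92.3, 96.6 and 105 in APCCM, a log2 fold change of -0.53 (SE 0.08, adjusted p = 4.4e-05). Fasn stood at 865, 823 and 896 CPM in WTCM and at 715, 720 and 687 in APCCM, a log2 fold change of -0.28 (SE 0.07, adjusted p = 0.0088). The groups did not overlap for either, and these were the only calls of this comparison kept under all 24 alternatives. Scd2 stood at 1507, 1697 and 1823 CPM against 1456, 1439 and 1476, a log2 fold change of -0.20 (SE 0.05, adjusted p = 0.0064), with an adjusted p of 0.079 without replicate 3 of WTCM. The other calls were Tm7sf2 (-0.24), Insig1 (-0.18), Acss2 (-0.16) and, higher in APCCM, Fdft1, the squalene synthase (0.17). The call for Fdft1 was lost under 5 of 24 alternatives. Hsd17b7 (0.20, adjusted p = 0.053) and Msmo1 (0.19, adjusted p = 0.074) did not pass the test but did under 15 and 6 of 24. Without replicate 1 of WTCM no member was higher, and without replicate 3 of WTCM 2 were lower. Hmgcs1 (-0.09, adjusted p = 0.31), Srebf1 (-0.20, adjusted p = 0.20) and Srebf2 (0.03, adjusted p = 0.86) did not pass the test. The groups did not overlap for Srebf1 (200, 201 and 234 CPM in WTCM, 182, 186 and 186 in APCCM). It passed under 2 of 24 alternatives, no low-count filter and only the groups compared (adjusted p down to 0.0095). Of the further sterol genes 2 of 16 were higher and 5 lower, with Soat1 lower by 0.64, and of the further fatty acid genes 2 of 18 were higher and 5 lower, with Me1, a source of NADPH, higher by 0.82. The stem cell markers summed to 1899 to 2085 CPM in APCCM against 3664 to 3800 in WTCM, with 5 of 5 lower. The secretory markers summed to 5415 to 5764 against 4592 to 5431 CPM, with overlapping sums but 6 of 8 markers higher and 0 lower. The enterocyte markers summed to 8959 to 9515 against 9829 to 10810 CPM, with 2 of 8 higher and 4 lower, and the proliferation markers to 1575 to 1630 against 1354 to 1422 CPM, with 1 of 5 higher. Their part in the result was not tested.

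Between day 2 and day 4, the level of most members fell in the WTCM libraries. Of the 29, 17 fell and 1 rose, against 11.6% and 12.5% of all genes tested. The mevalonate enzymes fell 5 of 7 with a median log2 fold change of -0.33, the enzymes from squalene to sterols 7 of 11 with a median of -0.17, and the fatty acid enzymes 5 of 7 with a median of -0.24. The median over all genes tested was 0.0043.

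Scd1 fell furthest, from 248, 243 and 241 CPM on day 2 to 115, 146 and 162 on day 4, a log2 fold change of -0.79 (SE 0.08, adjusted p = 1.6e-07). Fdps went from 34.9, 34.3 and 38.0 CPM to 22.8, 26.1 and 29.1, a log2 fold change of -0.45 (SE 0.08, adjusted p = 0.00028). Acat2 went from 128, 122 and 122 CPM to 84.5, 97.4 and 92.9, a log2 fold change of -0.44 (SE 0.06, adjusted p = 3.5e-06). The days did not overlap for any of the 3. Tm7sf2 (-0.39), Mvk (-0.37), Pmvk (-0.33), Idi1 (-0.32), Scd2 (-0.31), Ebp (-0.27) and Acaca (-0.26) also fell. Acly, Nsdhl, Sqle, Dhcr7, Lss, Acss2 and Cyp51 fell by 0.15 to 0.25. Insig1 rose, from 247, 255 and 264 CPM to 296, 329 and 328, a log2 fold change of 0.32 (SE 0.06, adjusted p = 0.00027). Hmgcs1 did not pass the test (0.08, adjusted p = 0.36), nor did Srebf1 (-0.01, adjusted p = 0.95) or Srebf2 (-0.03, adjusted p = 0.81). The calls for Idi1, Lss, Cyp51 and Acss2 were lost under 3 to 6 of 24 alternatives, each of them without replicate 1 of WTCM on day 4 among others. Without that library 13 members fell and 2 rose.

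The APCCM libraries changed in both directions over the same days. Of the 29 members, 4 rose and 6 fell, against 12.2% and 11.7% of all genes tested. With only the groups compared in the fit, or with DESeq2, 7 rose. The sterol branch had 3 higher and 3 lower and a median log2 fold change of 0.00, and the fatty acid branch 0 higher and 3 lower of 7 and a median of -0.14.

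Scd1 again fell furthest, from 183, 176 and 168 CPM to 92.3, 96.6 and 105, a log2 fold change of -0.84 (SE 0.08, adjusted p = 4.7e-08). Insig1 rose from 167, 186 and 198 CPM to 278, 275 and 289, a log2 fold change of 0.61 (SE 0.06, adjusted p = 3.9e-08). The days did not overlap for either gene. Hsd17b7, the ketosteroid reductase, rose by 0.38 on the log2 scale (58.7, 64.0 and 66.2 CPM to 81.9, 80.1 and 83.4), Fdft1 by 0.25 and Msmo1, the methylsterol oxidase, by 0.22, the last of these lost under 5 of 24 alternatives. Tm7sf2 fell by 0.48, Acaca by 0.32, Acat2 by 0.32, Pmvk by 0.30 and Acly by 0.21. Hmgcs1 (0.13, adjusted p = 0.10), Srebf1 (0.18, adjusted p = 0.21) and Srebf2 (0.07, adjusted p = 0.52) did not pass the test. Hmgcs1 and Srebf1 each passed under 2 of 24 alternatives (adjusted p down to 0.04 and 0.0049), and the days did not overlap for either.

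Beside these changes with the day, the enterocyte markers summed to 7160 to 7706 CPM on day 2 and 9829 to 10810 CPM on day 4 in WTCM, with 7 of 8 higher, and to 7095 to 7454 and 8959 to 9515 CPM in APCCM, with 4 of 8 higher. The proliferation markers went from 1565 to 1582 CPM down to 1354 to 1422 CPM in WTCM, with 4 of 5 lower, and from 1705 to 1726 down to 1575 to 1630 CPM in APCCM, with 1 of 5 lower. The stem cell markers went from 2662 to 2848 CPM down to 1899 to 2085 CPM in APCCM, with 4 of 5 lower (median log2 fold change -0.52), and from 3488 to 3723 to 3664 to 3800 CPM in WTCM, with 1 of 5 lower. Of the 8 secretory markers, 6 rose and 1 fell in WTCM (median 0.61, sums of 3426 to 3540 and 4592 to 5431 CPM), and 5 rose and 2 fell in APCCM (median 0.33, sums of 5448 to 5891 and 5415 to 5764 CPM). Their part in the result was not tested. Of the 8 LXR genes, 5 rose and 0 fell in APCCM, among them Abca1 by 1.43, Nr1h3 by 0.56, Abcg8 by 0.51 and Abcg5 by 0.42. Abca1 was at a very low level there, with overlapping days (0.870, 0.174 and 0.406 CPM on day 2, 1.96, 0.774 and 1.27 on day 4). In WTCM, 2 rose and 0 fell (Abcg8 by 0.43 and Abcg5 by 0.38). Abcg5 and Abcg8 form the sterol exporter of the enterocyte surface. Of the further sterol genes, 3 of 16 rose and 2 fell in APCCM and 3 rose and 1 fell in WTCM, with Npc1l1 up by 0.28 and 0.24. Of the further fatty acid genes, 6 of 18 rose and 5 fell in APCCM and 5 rose and 8 fell in WTCM, with Lpin1, which makes diacylglycerol, up by 0.64 and 0.50.

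The difference between titles was itself tested between the days. Of the 29 members, 2 had an interaction of title and day and 0 were in the other direction, against 0.884% and 1.24% of all genes tested (2.13% in either direction). With only the groups compared in the fit, or with DESeq2, 5 members had a higher value. The log2 difference between APCCM and WTCM moved upward from day 2 to day 4 by 0.37 for Scd2 (SE 0.07, adjusted p = 0.0033) and by 0.32 for Lss (SE 0.08, adjusted p = 0.026). The call for Lss was lost under 6 of 24 alternatives, among them without replicate 1 of WTCM on day 4 (0.27, adjusted p = 0.087). Insig1, at 0.30, did not pass (adjusted p = 0.063) but did under 8 of 24 alternatives, and for Scd1, at -0.06, the adjusted p was 0.92.

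**Figure D3:**
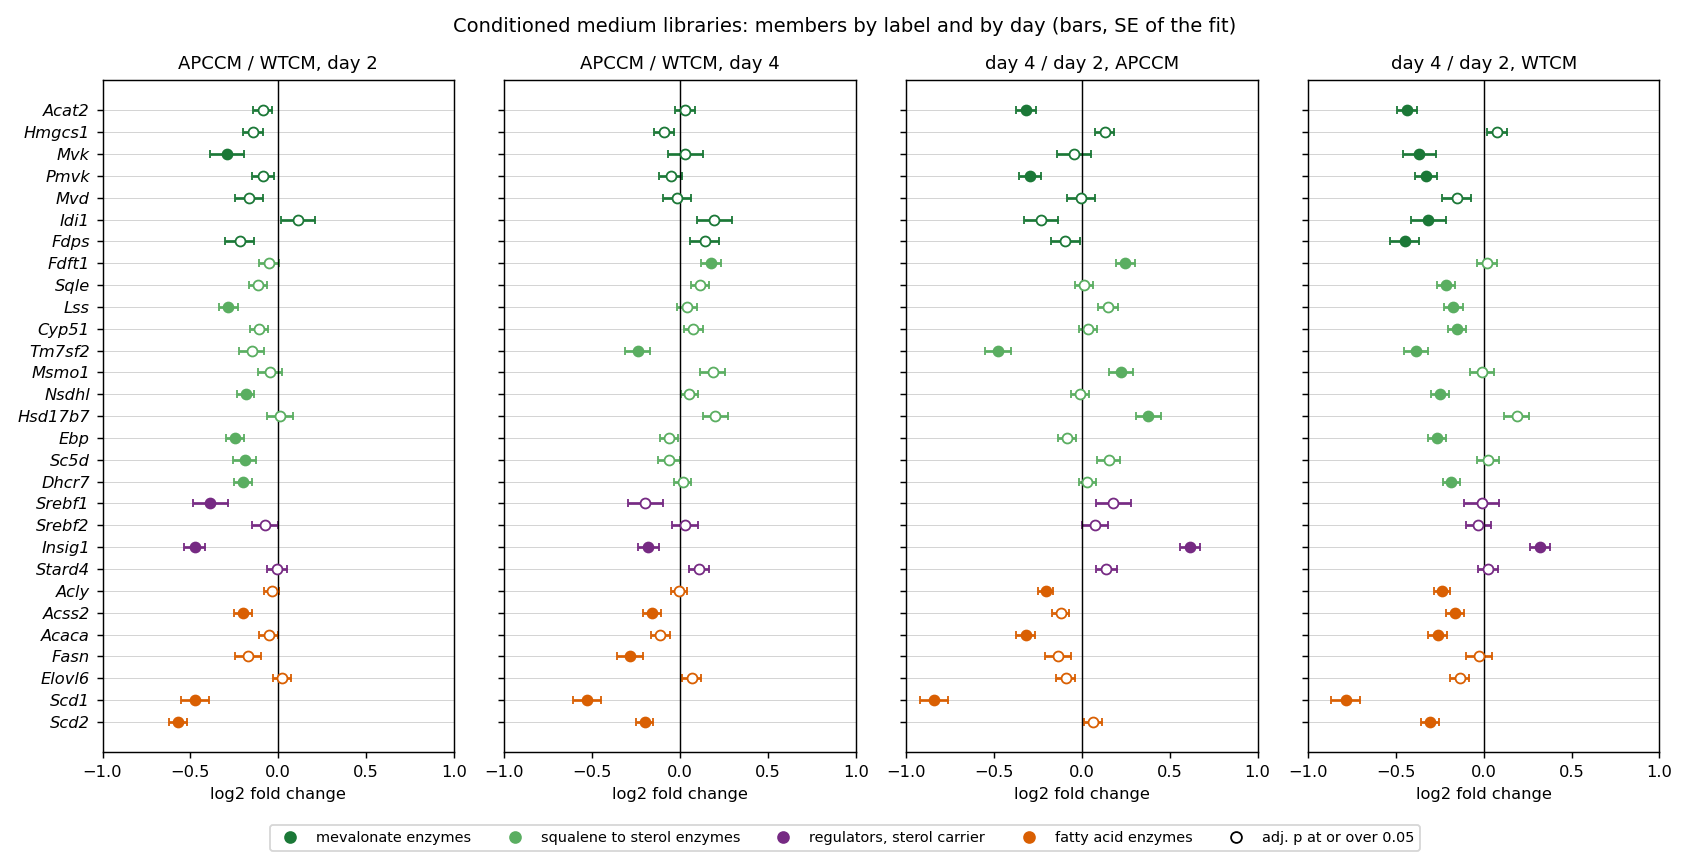
Log2 fold change of the 29 members in conditioned medium, by title on day 2 and on day 4 and by day within each title; bars are SE of the fit and open points did not pass the test. Scd1 lies to the left in all 4 panels (-0.84 to -0.47), and Insig1 lies to the left by title and to the right by day.

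The difference between untreated mutant and wild type was also tested against the difference between titles on day 2. Since Notum goes against the genotype label of the APCCM libraries, these may not be differences of the same factor, and the untreated libraries also differed from the others in RNA content. With title medians of -0.15 and -0.17, the values mostly restate the untreated difference. Of the 29 members, 23 had a log2 difference that was lower without conditioned medium and 0 a higher one, against 26.7% and 26.4% of all genes tested (53.1% in either direction). The interaction was -1.82 for Elovl6 (SE 0.09, adjusted p = 4.1e-15), -1.73 for Insig1 (SE 0.09, adjusted p = 6.6e-14) and -1.72 for Idi1 (SE 0.16, adjusted p = 1.6e-09). The sterol branch had a median of -1.08, with 17 of 18 called, and the fatty acid branch -0.26, with 4 of 7 called (Acss2, Acaca, Elovl6 and Scd1). The call for Acaca was lost under 5 of 24 alternatives (adjusted p up to 0.29), and the fatty acid median was -0.11 with the plain sum of gene counts and -0.17 or -0.37 without replicate 5 or 4 of the untreated wild type.

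The branches can be followed per library as the mean over genes of the log2 level relative to the wild type or WTCM day 2 mean. In the untreated mutant the sterol branch stood at -1.11 and -1.12 and the fatty acid branch at -0.91 and -0.89. In APCCM on day 2 the sterol branch stood at -0.21, -0.11 and -0.10 and the fatty acid branch at -0.21, -0.22 and -0.21. In WTCM on day 4 the values were -0.28, -0.16 and -0.13 against -0.35, -0.27 and -0.21. In APCCM on day 4 they were -0.15, -0.16 and -0.13 against -0.46, -0.46 and -0.43, so that the sterol branch stood 0.30 to 0.31 above the fatty acid branch in each of these 3 libraries, and 0.08 to 0.11 above it in WTCM on day 4. These means weight each gene alike, and no test was made over the genes. Scd1 fell furthest of the fatty acid genes between the days, by 0.84 on the log2 scale in APCCM and 0.79 in WTCM. The next largest falls were those of Acaca in APCCM (-0.32) and Scd2 in WTCM (-0.31). The gap between the branches therefore rests in part on Scd1, and means without it were not made.

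**Figure D4:**
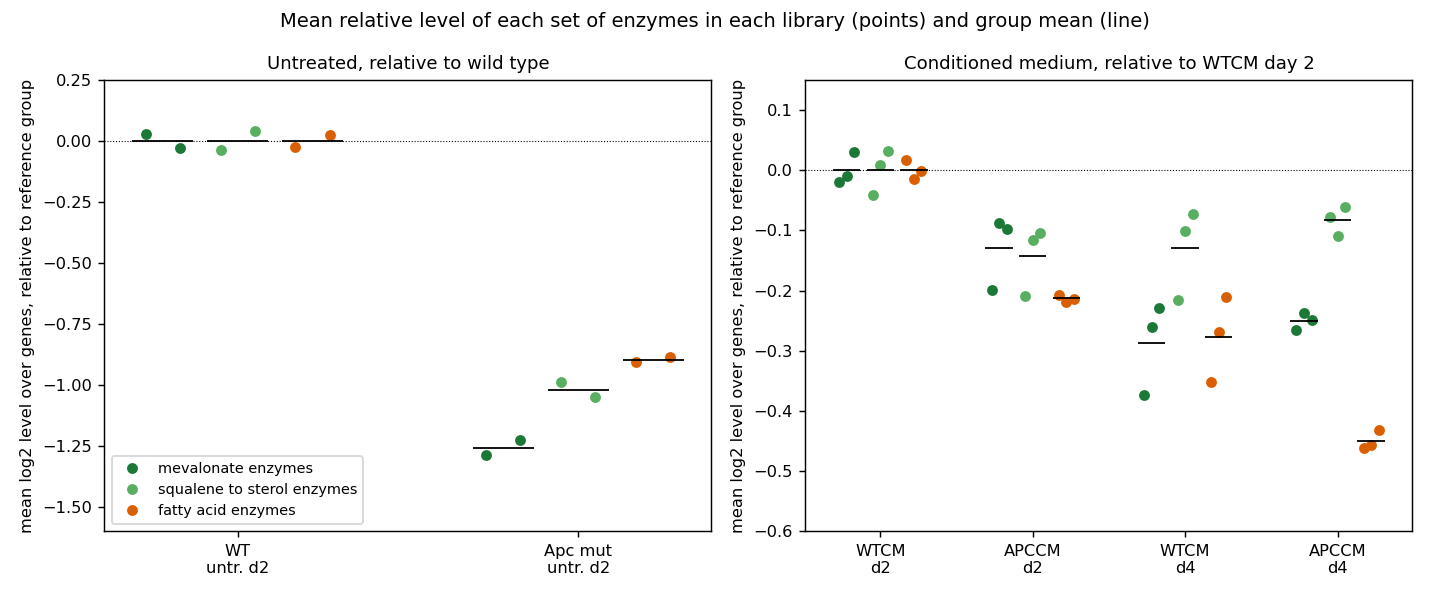
Mean log2 level of the mevalonate, squalene to sterol and fatty acid enzymes in each library (points), relative to untreated wild type (left) or WTCM on day 2 (right); lines are group means. In the untreated mutant all 3 sets lie below -0.8, and in APCCM on day 4 the fatty acid enzymes, at -0.46 to -0.43, lie below both sterol sets.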

How the data were processed

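RNA was sequenced from 16 libraries in 6 groups. Per the labels' protocols, RNA was isolated with NucleoSpin columns and libraries were made with the KAPA RNA HyperPrep kit with RiboErase. The authors deposited raw read counts per gene, 1 file per library, with 46078 genes and 5 summary lines that were left out. The submitters' processing notes name build GRCm38 and the tools HTSeq 0.6.1p1, HISAT2 2.1.0 and Trimmomatic 0.36. No strand setting is given in the sources used here. Genes that overlap on opposite strands cannot be told apart, and reads with several alignments are in no gene. Symbols, coordinates and exon lengths came from GENCODE M21 (98.0% of identifiers had a symbol).

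The counts were fitted once over all 6 groups with edgeR 4.0.16 (limma 3.58.1, R 4.3.3), with TMM factors (0.898 to 1.26) and filterByExpr, which kept 16510 genes, and tested by quasi-likelihood with Benjamini-Hochberg adjustment over all of them (threshold 0.05). The common biological coefficient of variation was 5.96%, with 10 residual degrees of freedom. The SE is the log2 fold change divided by the square root of F. CPM use TMM-scaled library sizes. The scripts were tested on simulated data. The 7 comparisons were genotype without conditioned medium, title on each day, day within each title and 2 interactions. Alternatives were DESeq2 1.42.0, other scalings, no filter, fewer genes or groups, a replicate block, and leaving out each library. The labels give same-numbered libraries no shared source, and 0 of 20 same-numbered pairs had deviations correlated over 0.1, so numbers were not used as pairs. With n = 2 in each untreated group, the untreated pairs give the same value by construction (-0.38). Its sign turns when the numbers are crossed, so the check says little about these libraries.

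The design stated for the series lists other groups than the library labels, and the labels were followed. Members and lists were chosen with earlier results of these data known. All members could be named; full statistics were given for at most 10 called members per comparison with the largest change, plus Hmgcs1, Srebf1, Srebf2 and Insig1, and of the other lists at most the 4 largest called, with 3 genes of SREBP release singled out after their values were seen. Some genes of those lists are counted but not reported by name.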

Additional observations from a re-analysis of the deposited data

Results flagged for a closer look

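Members whose difference between groups itself differed, by an interaction term with an adjusted p under 0.05, are listed here with the log2 size of the interaction. For title and medium on day 2 (untreated mutant minus wild type, less APCCM minus WTCM; the genotype label of the APCCM libraries is in doubt, so these may not be differences of the same factor) the mevalonate enzymes were at -1.17 (Acat2), -1.16 (Hmgcs1), -0.94 (Mvk), -1.20 (Pmvk), -1.09 (Mvd), -1.72 (Idi1) and -0.66 (Fdps). The enzymes from squalene to sterols were at -0.69 (Fdft1), -1.11 (Sqle), -1.01 (Lss), -0.48 (Cyp51), -1.13 (Msmo1), -0.67 (Nsdhl), -1.21 (Hsd17b7), -1.07 (Ebp), -1.31 (Sc5d) and -0.70 (Dhcr7). Insig1 was at -1.73 and Stard4 at -0.88. In the fatty acid branch, Acss2 was at -1.67, Acaca at -0.26, Elovl6 at -1.82 and Scd1 at -0.98. The call for Acaca was lost under 5 of 24 alternatives, with an adjusted p up to 0.29. For title and day in conditioned medium, Lss was at 0.32 and Scd2 at 0.37. The call for Lss was lost under 6 of 24 alternatives, among them without replicate 1 of WTCM on day 4 (0.27, adjusted p = 0.087).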

How the results depend on the processing

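Of 98 member results that passed the test, 80 passed under every alternative run for them and 0 changed sign. Of the 2352 alternative values, 2271 still passed. These include leaving out each of the 16 libraries, and most of those lie outside any comparison of 2 groups. Such counts therefore say little on how far a call rests on its own libraries. Insig1 by title on day 4 was lost under 6 of 24, among them without each APCCM library of that day. Of 105 member results that did not pass, 29 passed under at least 1 alternative, among them Fasn untreated without the low-count filter (adjusted p = 0.020). With the plain sum of gene counts, added after seeing the data, the untreated medians were -1.06 (sterol) and -0.29 (fatty acid), the interaction of title and medium gave -0.94 and -0.11 with 1 member higher, fatty acid medians were -0.15 by title on day 2 and -0.16 by day in APCCM, and by title on day 4 3 members were higher and 3 lower. It moved the median of all genes by 0.17 untreated and to 0.15 in that interaction, and the share of called genes that were higher from 51.8 to 62.7% untreated, 51.2 to 64.5% and 50.1 to 65.3% by title on days 2 and 4, 51.7 to 40.8% by day in WTCM and 49.7 to 60.0% in the interaction with medium. Upper quartile scaling gave untreated medians of -1.18 and -0.41, -0.21 for fatty acid genes in the interaction with medium, and 2 members higher by day in WTCM. Without the low-count filter the untreated sterol median was -1.20, with 3 members higher by title on day 4 and 2 by day in WTCM, and Acly untreated had an adjusted p of 0.055. With only the groups compared, the untreated sterol median was -1.25, members higher were 3 by title on day 4, 7 by day in APCCM, 2 by day in WTCM and 5 in the interaction with day, where 568 genes were called against 351. DESeq2 gave 3, 7 and 5 members higher by title on day 4, by day in APCCM and in the interaction with day. DESeq2 size factors in edgeR gave 2 higher by title on day 4 and 2 by day in WTCM, and leaving out histone, small RNA genes and Gm26917 gave 2 by title on day 4. Without Acat2, Acly and Acss2 the fatty acid median of the interaction with day was -0.06 against 0.03. The cause of these moves was not tested.

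With the replicate block, 10088 genes and 27 members lower were called untreated, against 10319 and 27, and 2 members were higher by title on day 4. Of 20 same-numbered pairs, 0 correlated over 0.1 (-0.38 to 0.085), and libraries matched their own number best in 10 of 40 checks. The value of -0.38 is that of the untreated pairs, which are the same by construction with n = 2 in each group. With the untreated numbers crossed, 10564 genes and 28 members lower were called. Leaving out each library in turn, the untreated sterol median was -1.25 to -1.20. Genes called by title on day 2 were 1725 (without replicate 3 of APCCM) to 3063, and the fatty acid median -0.18 to -0.14. By title on day 4 members higher were 0 to 3 and lower 2 to 6. The fatty acid median by day in APCCM was -0.16 to -0.12. Members higher by day in WTCM were 1 to 2, and in the interaction with day 1 to 3. The fatty acid median of the interaction with medium was -0.37 to -0.17. The untreated libraries held 8325979 to 13027701 gene counts, against 17986815 to 29152692 in conditioned medium, and no table compares what depth and replicate number each limit.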
